A study of Mus musculus with 4 samples.

Results

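The 9 genes described here report on steroid hormone signalling and metal handling in glomerular cells. They are the receptors Nr3c1 and Nr3c2, the glucocorticoid-responsive genes Fkbp5, Zbtb16, Tsc22d3, Sgk1 and Klf9, and the metallothioneins Mt1 and Mt2. They were chosen by name with earlier results of these data known, and all 9 are found among the 55488 genes that each count matrix lists. Glomeruli, in which the kidney filters blood, were profiled by single-cell RNA sequencing in droplets with a 3' kit, which the labels give as version 2. The 4 libraries, 1 per group, are of wild-type (WT) animals or of animals carrying the G5X allele of Col4a5 (AS), each at 5 and at 8 weeks of age. Col4a5 encodes a collagen IV chain of the glomerular basement membrane, and its loss is a model of Alport syndrome. The series describes the 5-week AS stage as before proteinuria and the 8-week stage as one of mild proteinuria. No treatment is named for any group. The strain, the sex, the number of animals behind a library, the hour of collection and the digestion protocol are not given in the sources used here. The labels name the tissue as embryonic although the sample titles give ages of 5 and 8 weeks. With 1 library per group no test between groups is possible: every interval below is a 95% interval that covers counting error only, and age and genotype cannot be told apart from the library itself.

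The 4 matrices held 6604 to 7963 barcodes and 74356581 to 126118422 unique molecular identifiers (UMIs, each standing for 1 captured transcript). Filtering left 5556 to 6832 cells per library. Any pair of libraries shared 13 to 18 barcodes, at most 0.240% of the smaller library. Every library held Y-linked transcripts (6399 to 13620 Ddx3y UMIs) and 9 to 27 Xist UMIs. The targeted gene Col4a5 had 387 to 547 CPM (counts per 1e6 UMIs of the class) in podocyte-like cells of the WT libraries and 193 to 203 CPM in those of the AS libraries. Classes were named from marker genes and are called podocyte-like, mesangial-like and glomerular endothelial-like, with smaller arterial endothelial-like, B-like, T and NK-like and loop and distal tubule-like classes. Podocyte-like cells numbered 1608, 1489, 2721 and 2391 in 5-week WT, 5-week AS, 8-week WT and 8-week AS, the order used for every set of 4 values below. Glomerular endothelial-like cells numbered 1843, 2324, 572 and 1867, and mesangial-like cells 679, 862, 155 and 1218. The 8-week WT library stood apart from the others. It had the fewest glomerular endothelial-like and mesangial-like cells, 39.0% of its cells stayed unnamed against 17.1% to 23.1% elsewhere, and markers of the proximal tubule summed to 61.3 CPM in its podocyte-like cells against 0.919 to 2.93 CPM in the other 3 libraries. The podocyte-like class was also split by library: cluster 0 held 89.8% of the 5-week WT cells, cluster 1 held 88.5% of the 8-week WT cells, and cluster 3 held 47.3% of the 5-week and 50.9% of the 8-week AS cells.

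Glucocorticoids bind the receptor encoded by Nr3c1, which is held ready by chaperones in the cytoplasm, moves to the nucleus and acts on genes with a glucocorticoid response element. Nr3c2 encodes the mineralocorticoid receptor, which binds aldosterone and also glucocorticoids. Among the targets, Fkbp5 encodes a co-chaperone that feeds back on the receptor, Zbtb16 a zinc finger transcription factor, Tsc22d3 the anti-inflammatory leucine zipper protein GILZ, Sgk1 a kinase of ion transport, and Klf9 a transcription factor. Metallothioneins are small cysteine-rich proteins that bind zinc and copper. Their genes respond to metals through the factor MTF1, and also to oxidative stress and glucocorticoids. Glucocorticoids are in clinical use for podocyte disease.

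Both receptors were detected in every named class, and their levels differed between classes more than between libraries. Nr3c1 in podocyte-like cells stood at 95.8, 84.1, 97.6 and 89.5 CPM. Glomerular endothelial-like cells had 247, 249, 246 and 296 CPM, and mesangial-like cells 350, 310, 327 and 389 CPM. The podocyte-like level was thus the lowest of these 3 classes in every library, and its range did not overlap that of the other 2. Nr3c2 stood at 48.8, 42.4, 55.1 and 37.2 CPM in podocyte-like cells. Its level was 123, 122, 144 and 123 CPM in glomerular endothelial-like cells and 122, 155, 164 and 128 CPM in mesangial-like cells. Podocyte-like cells were again lowest, with log2 ratios to glomerular endothelial-like cells of -1.24, -1.43, -1.30 and -1.60 for Nr3c2 and of -1.32, -1.51, -1.29 and -1.67 for Nr3c1. Among all genes, 26.4% of the 10145 genes compared lay lower past 1.5-fold in podocyte-like than in glomerular endothelial-like cells in all 4 libraries. In bulk-like sums of a class, fewer expressing cells and less RNA per cell cannot be told apart.

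Neither receptor passed 1.5-fold between any pair of libraries compared in the 3 main classes. Here and below a ratio is log2((CPM + 5)/(CPM + 5)), and a gene is called higher or lower past 1.5-fold, a log2 of 0.585. From WT 5 weeks to WT 8 weeks the log2 ratio of Nr3c1 was 0.02 (-0.04 to 0.09) in podocyte-like, -0.00 (-0.11 to 0.10) in glomerular endothelial-like and -0.10 (-0.20 to 0.01) in mesangial-like cells. The farthest of the receptor ratios between AS and WT was that of Nr3c2 in podocyte-like cells at 8 weeks, at -0.51 (-0.59 to -0.43). It passed 1.5-fold in 1 of 10 other settings and came to -0.23 without podocyte-like cluster 23, which holds 43.0% of the 8-week AS podocyte-like cells and in which Nr3c2 was at 29.8 CPM.

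**Figure D1:**
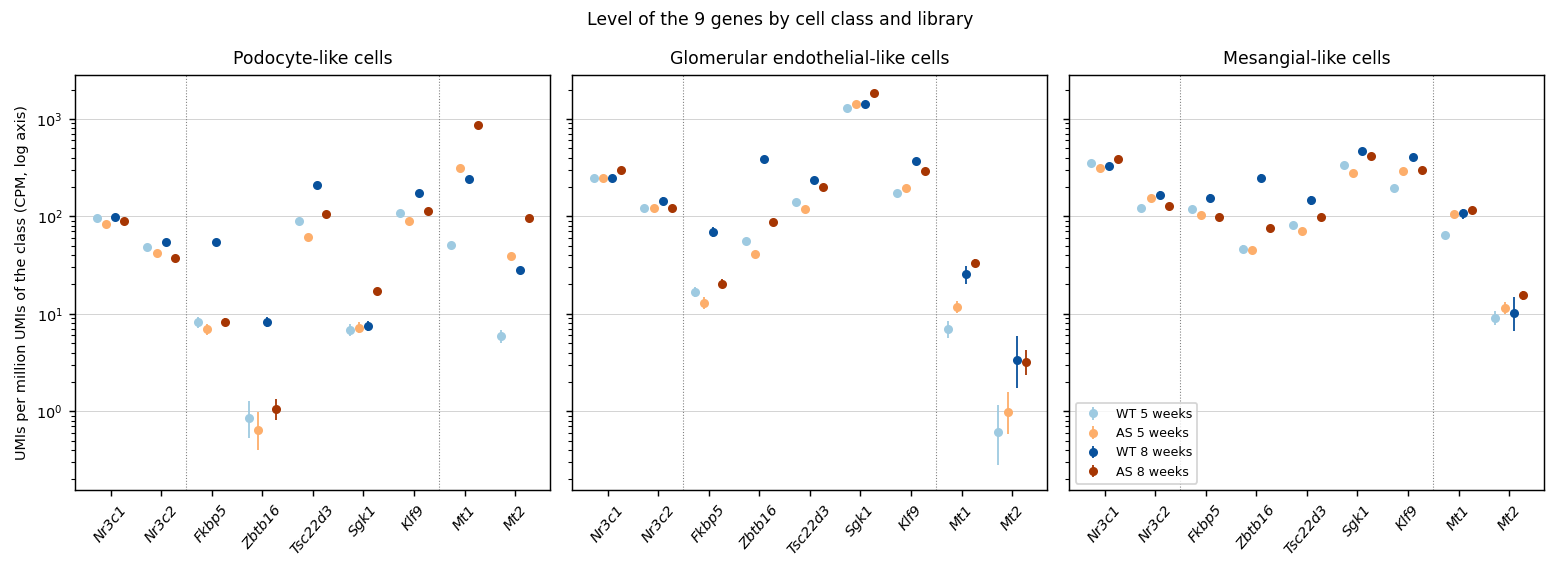
Level of each gene in CPM (log axis) in the 3 main classes, with 1 point per library and bars for the 95% Poisson interval (counting error only); dotted lines part receptors, glucocorticoid-responsive genes and metallothioneins. Dark blue points (WT 8 weeks) stand above the other 3 for Fkbp5, Zbtb16, Tsc22d3 and Klf9 in all 3 panels, and podocyte-like Mt1 runs from 51.1 CPM in WT 5 weeks to 858 CPM in AS 8 weeks.

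In the 8-week WT library Fkbp5, Zbtb16, Tsc22d3 and Klf9 were each higher than in the other 3 libraries in every main class. Sgk1 was highest there in mesangial-like cells alone. Fkbp5 in podocyte-like cells was at 8.16, 6.90, 54.2 and 8.33 CPM, and 3 libraries therefore lay within 6.90 to 8.33 CPM while the 8-week WT library lay far above. Glomerular endothelial-like cells had Fkbp5 at 16.7, 13.0, 69.4 and 20.4 CPM. Mesangial-like cells had the highest Fkbp5 level, 119, 103, 156 and 98.4 CPM, and the smallest gap between libraries. The log2 ratio of WT 8 weeks to WT 5 weeks was 2.17 (2.04 to 2.30) in podocyte-like, 1.78 (1.55 to 2.0) in glomerular endothelial-like and 0.37 (0.22 to 0.52) in mesangial-like cells, the last within 1.5-fold.

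Zbtb16 showed the widest gap in endothelial-like cells. Its level there was 56.1, 41.4, 384 and 87.5 CPM, and 77.4% of the 8-week WT cells held at least 1 Zbtb16 UMI, against 24.6%, 18.5% and 37.3% in the other 3 libraries (median depths of 5763.5 against 6943, 6113.5 and 6206 UMIs). With every cell thinned to 5000 UMIs these shares were 19.1%, 14.0%, 75.5% and 29.0%, in the usual order. Mesangial-like cells had 46.5, 44.7, 249 and 75.9 CPM. The log2 ratio of WT 8 weeks to WT 5 weeks was 2.67 (2.55 to 2.79) in glomerular endothelial-like and 2.30 (2.15 to 2.45) in mesangial-like cells. In podocyte-like cells Zbtb16 was at 0.846, 0.641, 8.25 and 1.06 CPM. That is 1.21% to 2.15% of the endothelial-like level of the same library. Summed glomerular endothelial markers stood in podocyte-like cells at 6.08% to 9.32% of their endothelial-like level, with 3 or 4 of the 10 markers at 10 CPM or more, and summed mesangial markers at 46.4 to 128 CPM against 13496 to 16508 CPM in mesangial-like cells. The part of free RNA in the podocyte-like Zbtb16 values was not tested, and they are left out of the counts below.

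Tsc22d3 and Klf9 followed with smaller ratios. Tsc22d3 was at 89.7, 61.5, 208 and 106 CPM in podocyte-like cells, at 139, 120, 237 and 202 CPM in glomerular endothelial-like cells and at 82.1, 71.5, 146 and 98.0 CPM in mesangial-like cells. Its WT 8 to WT 5 week log2 ratio was 1.17 (1.11 to 1.23), 0.75 (0.64 to 0.87) and 0.79 (0.63 to 0.95) in the same order of classes. Klf9 was at 109, 89.2, 172 and 113 CPM in podocyte-like cells, at 172, 196, 372 and 289 CPM in glomerular endothelial-like cells and at 195, 293, 408 and 298 CPM in mesangial-like cells. The ratios were 0.64 (0.58 to 0.70), 1.09 (1.0 to 1.19) and 1.05 (0.95 to 1.15). For both genes the 8-week AS library came next below the 8-week WT library in all 3 classes. Zbtb16 was also higher past 1.5-fold in AS 8 than in AS 5 weeks in glomerular endothelial-like (1.0) and mesangial-like cells (0.70), as was Sgk1 in mesangial-like cells (0.59). Between the AS libraries the AS 8 to AS 5 week log2 ratio of Tsc22d3 was 0.73 in podocyte-like, 0.72 in glomerular endothelial-like and 0.43 in mesangial-like cells, where 2.57% of 8492, 2.40% of 9198 and 3.71% of 9386 genes passed 1.5-fold in either direction.

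Counted over genes past the expression floor (a mean of at least 10 CPM over the 4 libraries and at least 50 UMIs in the class), 3 of the 3 measurable glucocorticoid-responsive genes in podocyte-like cells, 4 of 5 in glomerular endothelial-like cells and 3 of 5 in mesangial-like cells were higher past 1.5-fold in WT 8 weeks than in WT 5 weeks. Among all genes 1.17% of 8492, 3.31% of 9198 and 4.79% of 9386 were higher in the same classes. None of the 5 was lower. Because the members were chosen with earlier results of these data known, these counts describe them and test nothing. With TMM factors the higher genes made up 48.7% of all endothelial-like calls instead of 65.2%. Zbtb16 and Sgk1 did not reach the floor in podocyte-like cells, where their ratios were 1.18 and 0.09. Fkbp5 reached it there only through WT 8 weeks, at 54.2 CPM against 6.90 to 8.33 CPM in the other libraries. Its place in the podocyte-like count therefore follows from its level in the library that is called higher. The median log2 ratio of the measurable genes was 1.17, 1.09 and 0.79, beside 0.05, 0.08 and 0.06 over all genes. Tsc22d3 and Klf9 were higher past 1.5-fold in all 3 classes, as were 0.271% of the 7376 genes measurable in all 3. Tsc22d3 in mesangial-like cells missed 1.5-fold under 1 of 10 other settings, at a log2 ratio of 0.58.

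**Figure D2:**
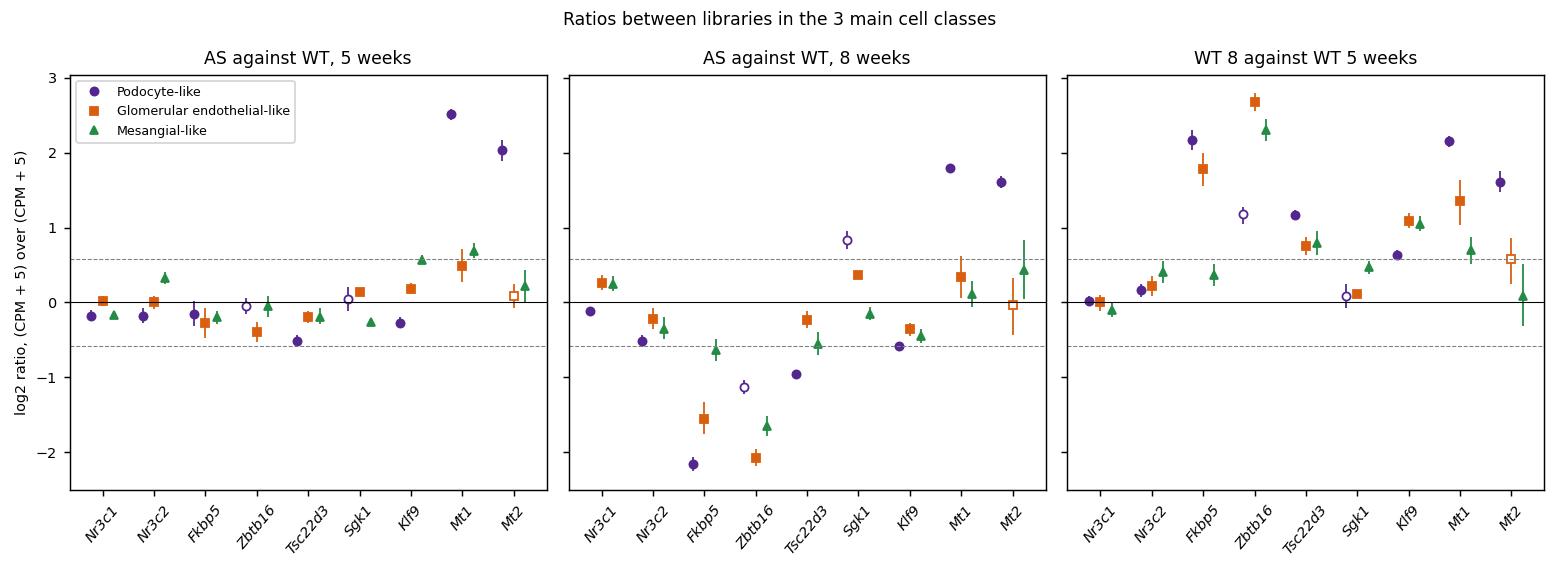
Log2 ratio between libraries for each gene, with 1 symbol per main class, bars for the 95% interval (counting error only), dashed lines at 1.5-fold and open symbols for genes under the expression floor. The left panel shows metallothioneins as the genes past 1.5-fold in AS at 5 weeks, the right panel shows Fkbp5, Zbtb16, Tsc22d3 and Klf9 above 0 in all 3 classes, and the middle panel has the same WT 8-week library in the denominator and shows them below 0.

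Clusters were compared next. Of the 27 clusters, which were formed without any of the 9 genes, 8 outside the podocyte-like class held at least 50 cells of each of the 4 libraries. This set of clusters was chosen after the values were seen. WT 8 weeks had the highest level of Zbtb16, Klf9 and Tsc22d3 in all 8 and of Fkbp5 in 7. Sgk1 was highest there in 1, Nr3c1 in 0, Nr3c2 in 6, Mt1 in 2 and Mt2 in 3. Over all 9970 genes with a mean of at least 10 CPM, 1.49% were highest in WT 8 weeks in all 8 clusters. Zbtb16 exceeded the next library past 1.5-fold in all 8 and Fkbp5 in 6, while Tsc22d3 and Klf9 did so in 0.

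Clusters outside the main classes had their own levels. In cluster 9, the arterial endothelial-like class, Fkbp5 stood at 31.9, 29.9, 106 and 21.9 CPM and Zbtb16 at 70.1, 58.5, 222 and 89.5 CPM. In cluster 8, an unnamed endothelial cluster led by Esm1 and Dll4, Fkbp5 stood at 10.9, 13.0, 72.1 and 18.7 CPM and Zbtb16 at 69.3, 54.3, 329 and 94.3 CPM. Cluster 14, which is led by Tspan8, Dcn and Col1a1, had Fkbp5 at 27.7, 20.5, 116 and 17.6 CPM. Cluster 18, led by the renin cell genes Ren1 and Akr1b7, had Fkbp5 at 54.9, 52.3, 50.2 and 46.0 CPM and no library apart. The AS to WT log2 ratio of Fkbp5 at 8 weeks was also within 1.5-fold in clusters 17 (-0.27), 19 (-0.56) and 22 (-0.44), as in cluster 18 (-0.11). Cluster 19, led by the smooth muscle genes Myh11 and Acta2, held almost no Fkbp5, with 1, 0, 12 and 1 UMIs. Podocyte-like cluster 0, which is shared by all 4 libraries, had Fkbp5 at 8.01, 6.30, 54.9 and 9.38 CPM. Its 8-week values rest on 140 WT and 76 AS cells.

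**Figure D3:**
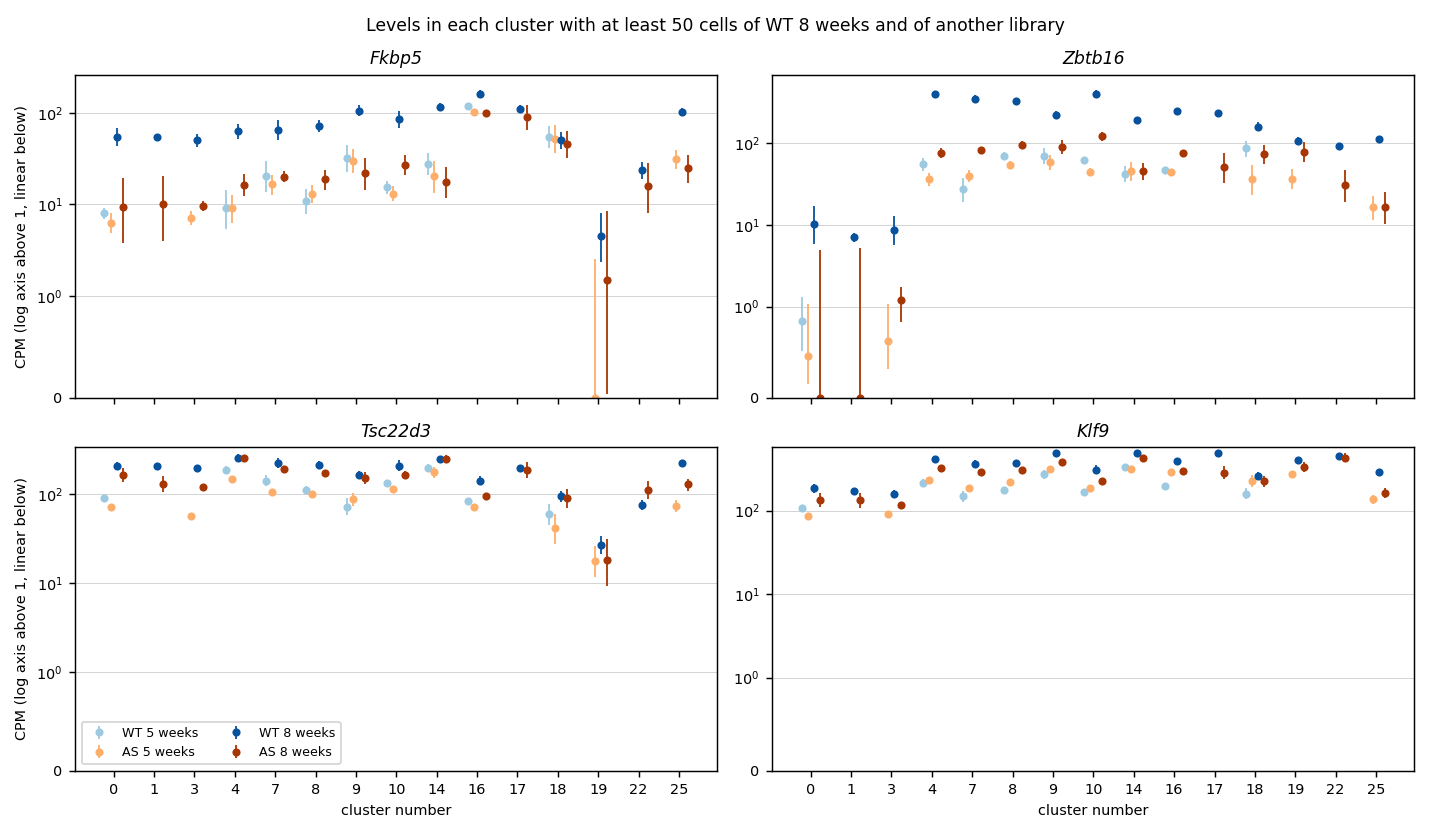
Level in CPM (log axis above 1, linear below) of 4 glucocorticoid-responsive genes in the 15 clusters with at least 50 cells of WT 8 weeks and of another library; colours are libraries, bars 95% Poisson intervals, and a library with under 50 cells in a cluster is not drawn. Clusters 0, 1 and 3 are podocyte-like, 4, 7 and 10 glomerular endothelial-like, 9 arterial endothelial-like and 16 mesangial-like, and 6 of the 15 (1, 3, 17, 19, 22 and 25) lack at least 1 of the other libraries. The dark blue point is highest for Zbtb16 and Klf9 in all 15 among the libraries drawn.

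Against this library, AS cells at 8 weeks had lower levels. The AS to WT log2 ratio at 8 weeks was -2.15 (-2.25 to -2.06) for Fkbp5 and -0.95 (-0.99 to -0.90) for Tsc22d3 in podocyte-like cells. Klf9, at -0.58 (-0.63 to -0.54), lay just within 1.5-fold and passed it in 4 of 10 other settings. In glomerular endothelial-like cells Fkbp5 was at -1.55 (-1.76 to -1.33) and Zbtb16 at -2.07 (-2.18 to -1.96), while Tsc22d3 (-0.23) and Klf9 (-0.36) were within 1.5-fold. In mesangial-like cells Zbtb16 was at -1.65 (-1.78 to -1.52) and Fkbp5 at -0.64 (-0.78 to -0.49), and the latter passed 1.5-fold in only 3 of 10 other settings (-0.72 to -0.29). Thus 2 of 3 measurable genes in podocyte-like cells and 2 of 5 in each of the other classes were lower past 1.5-fold, beside 3.07% of 8492, 1.94% of 9198 and 4.39% of 9386 genes. The podocyte-like count includes Fkbp5, which reached the floor only through WT 8 weeks, the library compared here. Under the floor in podocyte-like cells, Zbtb16 was at -1.13 and Sgk1 at 0.83. With scaling by TMM factors, higher genes made up 70.5%, 63.7% and 46.3% of all calls in these 3 classes, instead of 52.2%, 50.3% and 23.3%. Of the clusters outside the named podocyte-like class, 12 had at least 50 cells of both 8-week libraries. In them Zbtb16 was lower past 1.5-fold in AS in 11 and Fkbp5 in 8, with median log2 ratios of -1.72 and -1.49. The 12 include unnamed cluster 25, whose best marker score was that of podocytes (Zbtb16 -2.46, Fkbp5 -1.85). No share over all genes was taken for these counts.

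Of the members past the floor, 4 of 7 in podocyte-like, 2 of 8 in glomerular endothelial-like and 2 of 9 in mesangial-like cells lay past 1.5-fold between AS and WT at 8 weeks, beside 6.43%, 3.89% and 5.72% of all genes in either direction. Between the WT libraries 5 of 7, 5 of 8 and 4 of 9 did so, beside 1.97%, 5.07% and 6.96%. Both podocyte-like counts include Fkbp5, which reached the floor there only through WT 8 weeks.

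These 8-week ratios and the WT age ratios share the 8-week WT library, and they rest on it. With the 5-week WT library as control the 8-week AS ratios turned to 0.02 for Fkbp5, 0.05 for Zbtb16 and 0.22 for Tsc22d3 in podocyte-like cells, to 0.23 for Fkbp5 and 0.60 for Zbtb16 in glomerular endothelial-like cells, and to 0.65 for Zbtb16 in mesangial-like cells. At 5 weeks none of the glucocorticoid-responsive genes passed 1.5-fold between AS and WT in any of the 3 classes. Either direction was passed there by 3.26% of 8492 genes in podocyte-like, 1.54% of 9198 in glomerular endothelial-like and 3.09% of 9386 in mesangial-like cells. The nearest to the threshold were Klf9 in mesangial-like cells at 0.57 (0.51 to 0.64), which passed under 2 of 10 other settings, and Tsc22d3 in podocyte-like cells at -0.51 (-0.59 to -0.43).

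Sgk1 had its own pattern, one of cell class. It was at 1304, 1433, 1407 and 1825 CPM in glomerular endothelial-like cells, at 333, 276, 463 and 417 CPM in mesangial-like cells and at 6.80, 7.20, 7.52 and 17.3 CPM in podocyte-like cells. Arterial endothelial-like cells had 509, 502, 381 and 843 CPM, and their range did not overlap that of glomerular endothelial-like cells. At least 98.1% of glomerular endothelial-like cells in each library held a Sgk1 UMI. The podocyte-like levels were 0.503% to 0.948% of the endothelial-like ones. Within the 8-week AS library they differed between podocyte-like clusters, with 7.15 CPM in cluster 3 and 25.4 CPM in cluster 23, and the part of free RNA in them was not tested. Between WT libraries the log2 ratio was 0.11 (0.06 to 0.15) in glomerular endothelial-like and 0.47 (0.38 to 0.56) in mesangial-like cells, both within 1.5-fold. The podocyte-like AS to WT ratio at 8 weeks, 0.83 (0.71 to 0.95), was under the expression floor and came to -0.01 without cluster 23.

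Promoter sequence was examined because the 5 genes did not share 1 pattern. RefSeq promoter windows ran from 250 bases before to 50 after a start (GRCm38.p6). They were found for 7 of the 8 genes looked up, with 14 windows in all. Zbtb16 had no window and was not searched, and Nr3c1 was not looked up. The full glucocorticoid response palindrome, searched as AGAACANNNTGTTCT (its own reverse complement), occurred in 3 of 32851 windows, or 0.00913%. One of these belonged to Sgk1, in the window chr10:21993640-21993939 on the plus strand, with the first base of the match 189 bases before that start. The match, with both half-sites in capitals and the bases between them in lower case, is shown because it belongs to the responsive gene that did not set the 8-week WT library apart in podocyte-like or glomerular endothelial-like cells.
Sgk1 match: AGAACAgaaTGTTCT
The other windows of the glucocorticoid-responsive genes, for Fkbp5 (1 window), Klf9 (1), Tsc22d3 (3) and Sgk1 (5 more), held no such match, and none to the looser GNACANNNTGTNC, which every palindrome match also fits and which occurred in 0.475% of windows. Places of all 5 glucocorticoid-responsive genes, the unsearched Zbtb16 included, are given in GRCm38 by GENCODE M21. They are chr17:28399094-28517527 (Fkbp5, minus strand), chr9:48654297-48836222 (Zbtb16, minus), chrX:140539528-140600659 (Tsc22d3, minus), chr10:21882184-21999903 (Sgk1, plus) and chr19:23141226-23168134 (Klf9, plus). Known response elements can lie in introns or far from a start, which these windows do not cover.

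Other genes that glucocorticoids are known to induce had smaller median ratios between the WT libraries than the 5 members. Of a list of 30, 16 were measurable in podocyte-like cells, and 4 were higher and 0 lower past 1.5-fold in WT 8 weeks than in WT 5 weeks, with a median log2 ratio of 0.33, beside 1.17% of all genes higher. The 4 were the sulfotransferase gene Sult1a1 (1.33), the lipase inhibitor gene Angptl4 (1.31), the phosphatase gene Dusp1 (0.72) and the glutamine synthetase gene Glul (0.59). Of 17 in glomerular endothelial-like cells 2 were higher, Map3k6 (1.17) and Sult1a1 (0.85), with a median of 0.39, beside 3.31% of all genes. In mesangial-like cells 5 of 18 were higher, led by Sult1a1 (1.24), Glul (1.23) and Angptl4 (1.14), with a median of 0.35, beside 4.79% of all genes. Sult1a1 was thus the list member past 1.5-fold in all 3 classes, at 8.09, 13.2, 27.8 and 14.2 CPM in podocyte-like cells. In AS against WT at 8 weeks the podocyte-like list divided: Nfkbia (1.36), Anxa1 (1.22), Cebpd (0.66) and Dusp1 (0.63) were higher and Sult1a1 (-0.77) was lower in AS, beside 3.36% of all genes higher and 3.07% lower. Nfkbia, which NF-kB signalling also induces, stood at 55.0, 121, 71.6 and 192 CPM and was high in both AS libraries, unlike Fkbp5.

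Genes that act on the receptor were compared in the same way. Of 13 genes for receptor chaperones, coactivators and steroid-converting enzymes, 11 were measurable in podocyte-like cells and 0 passed 1.5-fold between the WT libraries. Of 10 in glomerular endothelial-like cells 0 passed, and in mesangial-like cells 1 of 11, the coactivator gene Ncoa3 (0.77). Among all genes 1.97%, 5.07% and 6.96% passed in these classes, so such counts are near the background. In AS at 8 weeks chaperone genes were higher than in WT: Hsp90aa1 (0.90) in podocyte-like cells, Hsp90ab1 (0.90), Stip1 (0.79) and Fkbp4 (0.60) in glomerular endothelial-like cells, and Hsp90ab1 (0.88), Hsp90aa1 (0.66) and Fkbp4 (0.64) in mesangial-like cells. Among all genes 3.36%, 1.96% and 1.33% were higher in these classes. Hsp90ab1 stood at 811, 858, 748 and 1403 CPM in glomerular endothelial-like cells, so here it was the 8-week AS library that stood apart. Of 8 genes of mineralocorticoid-linked sodium transport, 5 were measurable in podocyte-like cells. Tsc22d3 and Atp1b1 were higher past 1.5-fold in WT 8 than in WT 5 weeks, beside 1.17% of all genes. In AS against WT at 5 weeks Atp1b1 alone was higher, beside 2.07% of all genes. At 8 weeks Tsc22d3 alone passed, as lower in AS, beside 3.07%. Atp1b1 stood at 12.6, 29.6, 31.4 and 21.1 CPM. In the other main classes no measurable member beside Tsc22d3 passed.

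Clock genes also differed between the WT libraries. Of 15 clock genes, 4 of 11 measurable were higher in WT 8 weeks in podocyte-like cells, namely Bhlhe41 (1.43), Dbp (0.82), Per3 (0.72) and Per2 (0.66), and the list median was 0.41, beside 1.17% of all genes higher. Among 13 in glomerular endothelial-like cells Per2 (0.96), Hlf (0.93) and Bhlhe41 (0.81) were higher and Arntl (-0.91) was lower. Of all genes there, 3.31% were higher and 1.76% lower. Between the AS libraries 7 of the same 13 were higher and 1 lower at 8 weeks, beside 1.69% and 0.718% of all genes. The list median was 0.69 between the AS libraries and 0.42 between the WT libraries. Summed over the list, podocyte-like cells had 777, 663, 1040 and 889 CPM, so the 8-week AS library was also above both 5-week libraries. Immediate-early and dissociation genes summed to 1149, 1346, 1385 and 1672 CPM in podocyte-like cells. With cells of a low immediate-early share alone, 25 of the 28 member ratios past 1.5-fold remained so. The part of clock phase, of dissociation or of tubule transcripts in the Fkbp5 and Zbtb16 levels was not tested.

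Metallothionein levels in podocyte-like cells differed between the libraries. Mt1 in podocyte-like cells was at 51.1, 314, 244 and 858 CPM and Mt2 at 5.85, 39.3, 28.1 and 96.2 CPM. AS was above WT at each age and 8 weeks above 5 weeks in each genotype, with 5-week WT lowest and 8-week AS highest. The AS to WT log2 ratio was 2.51 (2.43 to 2.58) at 5 weeks and 1.79 (1.76 to 1.83) at 8 weeks for Mt1, and 2.03 (1.89 to 2.17) and 1.61 (1.53 to 1.69) for Mt2. Both genes were higher past 1.5-fold at both ages, as were 1.60% of the 8492 genes. With age, Mt1 was at 2.15 (2.07 to 2.22) in WT and 1.44 (1.41 to 1.47) in AS, and Mt2 at 1.61 (1.47 to 1.75) and 1.19 (1.11 to 1.27). The WT libraries were themselves far apart, and 5-week AS cells lay close to 8-week WT cells (314 against 244 CPM for Mt1). Against the 8-week WT library the 5-week AS ratios were 0.36 for Mt1 and 0.42 for Mt2, within 1.5-fold, so the 5-week call rests on the 5-week WT library. Immediate-early and dissociation genes differed in the same cells: 4 of 9 measurable were higher in AS past 1.5-fold at 5 weeks and 4 of 9 at 8 weeks (medians 0.30 and 0.25), Egr1 (2.17 and 2.72) and Junb (1.22 and 1.79) among them. All genes higher made up 2.07% and 3.36%. The part of dissociation in the metallothionein levels was not tested.

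Mt2 and Mt1 are neighbours on chromosome 8, at chr8:94172664-94173568 and chr8:94179082-94180327 (plus strand, GRCm38, GENCODE M21), with 5513 bases between them. The 250 bases before each RefSeq start are printed because both genes were higher in the same libraries, with each match before the start to the core of the metal response element in capitals (TGCGCNC or TGCACNC, both strands). The Mt1 run is chr8:94178839-94179088 and the Mt2 run chr8:94172368-94172617.
Mt1 upstream: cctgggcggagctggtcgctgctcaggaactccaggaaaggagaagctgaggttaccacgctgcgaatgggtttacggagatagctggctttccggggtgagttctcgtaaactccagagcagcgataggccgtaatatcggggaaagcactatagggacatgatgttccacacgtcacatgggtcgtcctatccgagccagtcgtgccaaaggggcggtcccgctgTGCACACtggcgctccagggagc
Mt2 upstream: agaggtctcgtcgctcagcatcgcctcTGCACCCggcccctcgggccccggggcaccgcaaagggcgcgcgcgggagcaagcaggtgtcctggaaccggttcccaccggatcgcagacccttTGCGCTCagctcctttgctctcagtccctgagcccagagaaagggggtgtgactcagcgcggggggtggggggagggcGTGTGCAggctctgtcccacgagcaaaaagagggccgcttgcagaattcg
With the 50 bases after the start included, Mt1 had 3 matches and Mt2 had 4, and 1.97% of the 32851 windows had 3 or more and 0.517% had 4 or more. In Mt1 the matches begin 23 bases before and 3 and 21 bases after the start, and in Mt2 223, 128 and 50 bases before and 5 bases after it. The Mt1 window also holds the looser glucocorticoid motif, as GGACATGATGTTC, from 94 bases before the start (lower case above). Starts differ between annotations, and GENCODE lists further starts downstream, so these windows need not be the promoters in use.

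**Figure D4:**
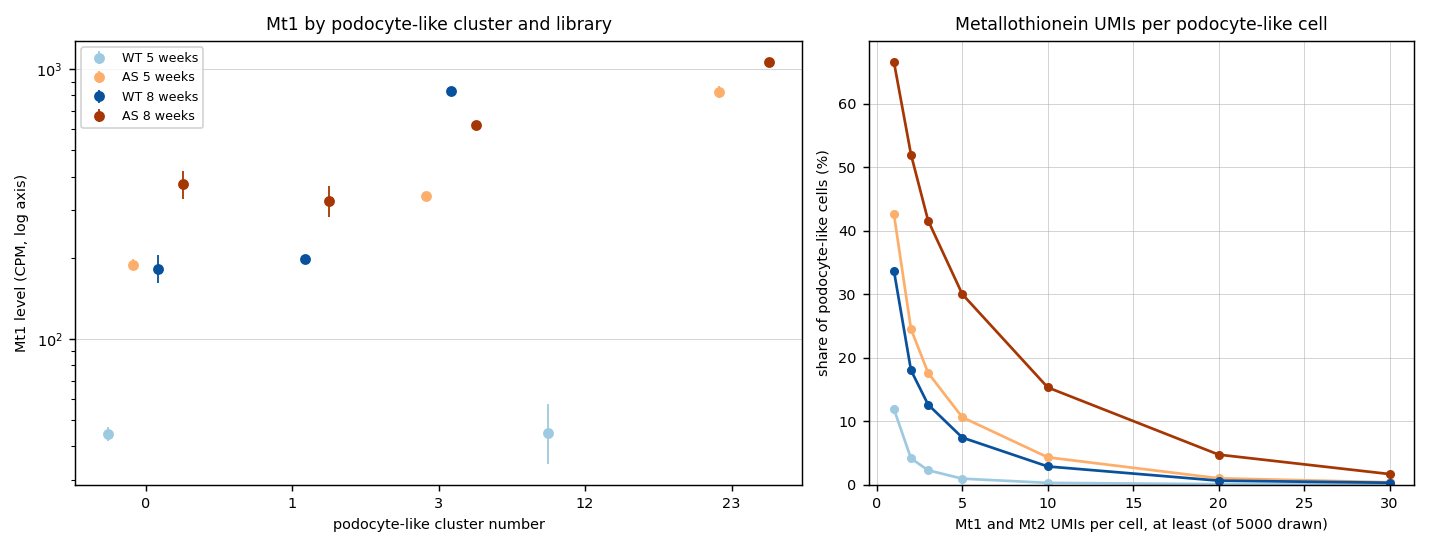
Left, Mt1 in CPM (log axis) by podocyte-like cluster and library for clusters with at least 50 cells of the library, with 95% Poisson intervals; right, the share of podocyte-like cells, each thinned to 5000 UMIs, with at least the given number of Mt1 and Mt2 UMIs. In cluster 3 the WT 8-week point (828 CPM) lies above both AS points, and at 10 or more UMIs the shares run from 0.265% in WT 5 weeks to 15.3% in AS 8 weeks.

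Mt1 also differed between podocyte-like clusters, which the libraries filled unequally. Cluster 23, led by Igfbp2, Prss23 and Tnfrsf12a, held 43.0% of the 8-week AS cells, 4.03% of the 5-week AS cells and at most 0.221% of either WT library, and Mt1 in it was at 825 CPM in 5-week and 1064 CPM in 8-week AS cells. In cluster 0, shared by all 4 libraries, Mt1 was at 44.2, 188, 182 and 374 CPM. At 8 weeks cluster 0 held only 140 WT cells (5.15% of the class) and 76 AS cells (3.18%). The AS to WT log2 ratio in cluster 0 was 1.97 at 5 weeks and 1.02 at 8 weeks. In cluster 1 it was 0.70 at 8 weeks (198 CPM in 2407 WT cells, 325 CPM in 66 AS cells, 2.76% of the class). In cluster 3 the order turned, with 828 CPM in the 153 WT cells and 619 CPM in the 1218 AS cells at 8 weeks, a log2 ratio of -0.42. Mt2 in cluster 3 gave the same order, 106 CPM in WT and 73.9 CPM in AS. Without cluster 23 the whole-class ratio at 8 weeks was 1.30 for Mt1 and 1.22 for Mt2, still past 1.5-fold.

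Metallothionein transcripts were spread unevenly over cells. After thinning to 5000 UMIs, 11.9%, 42.6%, 33.7% and 66.6% of podocyte-like cells held at least 1 Mt1 or Mt2 UMI. At least 10 were held by 0.265%, 4.29%, 2.85% and 15.3%. The 99th percentile was 4.0, 18.8, 16.0 and 36.0 UMIs per cell, while the median was 0 in 3 libraries and 2.0 in AS 8 weeks. Across cells of a library, Mt1 and Mt2 correlated at a Pearson r of 0.44, 0.56, 0.52 and 0.57 (1510, 1421, 2458 and 2186 thinned cells). These cells share a library, and the r is a description. In mesangial-like cells this r was 0.14, 0.15, 0.16 and 0.11, and in glomerular endothelial-like cells 0.23, 0.03, -0.02 and 0.10. No other pair among the 9 genes exceeded 0.1 in size in podocyte-like cells, Fkbp5 with Tsc22d3 or Klf9 included. At this depth only 3.38%, 3.59%, 21.6% and 4.44% of these cells held a Fkbp5 UMI. Such sparse counts cannot decide whether these genes vary together. Among glomerular endothelial-like cells thinned to the same depth, 97.1%, 94.1%, 89.0% and 85.3% of cells held no Mt1 or Mt2 UMI.

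In the other main classes the difference between AS and WT libraries was smaller than in podocyte-like cells. In mesangial-like cells Mt1 was at 63.7, 106, 107 and 116 CPM and Mt2 at 9.12, 11.4, 10.1 and 15.5 CPM. The AS to WT log2 ratio of Mt1 was 0.69 (0.59 to 0.80) at 5 weeks, past 1.5-fold as were 0.543% of 9386 genes, and 0.11 (-0.06 to 0.29) at 8 weeks. Against the 8-week WT library the 5-week ratio was -0.01. The WT age ratio of 0.70 (0.52 to 0.88) passed in 8 of 10 other settings. Podocyte markers summed to 3955 CPM in the 155 mesangial-like cells of WT 8 weeks, against 1213 to 1230 CPM in the other libraries, and their part in this ratio was not tested. In glomerular endothelial-like cells Mt1 was at 6.94, 11.8, 25.4 and 33.3 CPM, with AS to WT ratios of 0.49 (0.27 to 0.71) and 0.34 (0.06 to 0.62) and age ratios of 1.35 (1.04 to 1.64) in WT and 1.19 (1.01 to 1.37) in AS. These levels were 13.6%, 3.77%, 10.4% and 3.88% of the podocyte-like ones, while podocyte markers stood in the same cells at 2.55%, 3.19%, 4.82% and 3.65% of theirs. The part of free RNA in them was not tested. In clusters outside the named podocyte-like class Mt1 had AS to WT log2 ratios of both signs. At 5 weeks 6 of 12 were higher and 2 lower past 1.5-fold (median 0.59). At 8 weeks 4 of 12 were higher and 1 lower (median 0.20). The highest ratio at 5 weeks was in cluster 2 (3.01) and at 8 weeks in cluster 25 (1.33). Both are unnamed clusters whose best marker score was that of podocytes, in cluster 25 nearly level with parietal epithelial cells. No share over all genes was taken for these counts. Arterial endothelial-like cells turned from 1.27 to -1.86, cluster 14 was at 2.30 and -0.04, and cluster 18 at 0.99 and 0.82.

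Proximal tubule markers were highest in the 8-week WT library in each main class. Loop and distal tubule markers were highest there in glomerular endothelial-like and mesangial-like cells. In podocyte-like cells they summed to 217, 463, 261 and 429 CPM, higher in both AS libraries. The 94 loop and distal tubule-like cells of WT 8 weeks held 724 CPM of Mt1 and 123 CPM of Mt2, and the other libraries had 9 such cells at most. Podocyte markers summed to 18208 CPM in these 94 cells, against 12164 CPM for loop and distal tubule markers. Cluster 26, a shallow cluster with 781 of its 803 cells in WT 8 weeks, held 322 CPM of Mt1 there. Proximal tubule markers in glomerular endothelial-like cells of WT 8 weeks summed to 140 CPM, against 0.962 to 2.04 CPM elsewhere. Arterial endothelial-like Mt1 was at 3.55, 15.6, 125 and 30.7 CPM, from 4, 24, 250 and 35 UMIs, again highest in WT 8 weeks. Podocyte markers summed to 8464 CPM in these cells of WT 8 weeks, against 1963 to 2357 CPM in the other libraries. Loop and distal tubule markers summed to 67.8 CPM there. The part of tubule or podocyte RNA in these Mt1 levels was not tested. Within podocyte-like cells of WT 8 weeks Mt1 ran from 182 to 828 CPM over clusters 0, 1 and 3.

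Other genes of zinc and metal handling had smaller ratios than the metallothioneins. Of 15 listed, 11 were measurable in podocyte-like cells. In AS 1 was higher past 1.5-fold at 5 weeks, the heme oxygenase gene Hmox1 (0.75), and 2 at 8 weeks, Hmox1 (0.61) and the zinc importer gene Slc39a10 (0.61), with none lower, beside 2.07% and 3.36% of all genes higher. Between the WT libraries Slc39a1 (0.88) and Slc39a10 (0.60) were higher at 8 weeks, both zinc importers, beside 1.17% of all genes. Hmox1 stood at 16.1, 30.3, 21.1 and 34.9 CPM, the same order of libraries as Mt1 except that its range was narrower. The median of the list was 0.12 at 5 weeks and 0.13 at 8 weeks between AS and WT, beside -0.00 and -0.05 over all genes. The early response gene Ier3, from the dissociation list, stood at 55.8, 155, 120 and 349 CPM in podocyte-like cells.

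Ranked by class, most ranges over the 4 libraries overlapped. Among the 5 classes with at least 20 cells in every library, Nr3c1 ran from mesangial-like (median 338 CPM) through arterial endothelial-like (308), B-like (281) and glomerular endothelial-like (248) to podocyte-like cells (92.7), and only the last stood clear of its neighbour. Nr3c2 was highest in arterial endothelial-like cells (median 231 CPM), clear of mesangial-like cells (141). For Fkbp5, Tsc22d3, Klf9, Mt1 and Mt2 every neighbouring pair overlapped. B-like cells had the highest Tsc22d3 (median 316 CPM), with 226, 257, 375 and 416 CPM in the 4 libraries. B-like Zbtb16 was at 8.28, 25.7, 89.1 and 10.5 CPM, from 4, 16, 19 and 3 UMIs, highest in the 24 cells of WT 8 weeks. Glomerular endothelial markers summed to 4452, 5982, 5124 and 7878 CPM in B-like cells, and podocyte markers to 873, 879, 9478 and 1024 CPM. The part of free RNA in the B-like values was not tested. Values compared between genes here are not per length, since 3' tags are counted once per transcript.

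Genes of like pattern were ranked over 12 points, 3 main classes by 4 libraries with each class centred, among 7200 genes. Closest to Fkbp5 were Cyp4f13 (r = 0.922), Rffl (0.921) and Acot2 (0.917), to Tsc22d3 Plscr4 (0.955), Lin52 (0.954) and Mllt10 (0.948), and to Klf9 Zbtb44 (0.963), Arid4b (0.953) and Klhl24 (0.948). Mt1 was closest to Eml2 (0.966), Tesk1 (0.965) and Tmem189 (0.962), and Mt2 to Ier3 (0.972) and Mt1 (0.962). Nr3c1 was nearest Supt16 (0.900) and Nr3c2 nearest Gigyf1 (0.949). Zbtb16 and Sgk1, which are under the floor in podocyte-like cells, were nearest Letmd1 (0.978) and Capzb (0.930). With 12 points from 4 libraries, any gene high in 1 library scores well, and these names describe the libraries.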

How the data were processed

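The deposited values are whole-number counts of UMIs per gene and barcode. Per the file headers, the authors' matrices come from Cell Ranger 9.0.0, and the submitters' processing notes also name bcl2fastq 2.20.0, STAR 2.7.2a and the build GRCm38 (mm10). The matrices were already filtered to barcodes with at least 500 UMIs. Barcodes under 500 genes, under 1000 UMIs or over 20% mitochondrial UMIs were dropped, and Scrublet (expected rate 6%) removed 2.40% to 6.32% of them as doublets. Cells were clustered with scanpy 1.11.5 (2000 variable genes, with the 9 genes and all listed genes left out, 30 components, 15 neighbours, Leiden resolution 1). A cluster was named from marker lists where its class led by 1 log2 unit with at least 3 markers detected and a median depth of at least 1/3 of that of its libraries. The rules on lead, depth and ties were set after the clusters were seen, so shares of classes may come from rebuilt names.

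For each class of each library the counts were added up and divided by the class total (CPM). Poisson intervals for levels, conditional binomial intervals for ratios and Clopper-Pearson intervals for shares are all 95% intervals that cover counting error only. Cells are not replicates, so no test between groups was made. A call is a ratio past 1.5-fold with 5 CPM added to each level, and genes under a mean of 10 CPM or 50 UMIs in a class were left out of gene counts. The 28 member ratios followed across alternatives include under-floor ones of podocyte-like Zbtb16 and Sgk1. Named genes are the 9 members, at most 4 genes of each list past 1.5-fold by size of ratio, and the 3 genes of most like pattern; further genes were named after their values were seen. Members and lists were chosen with earlier results of these data known. TMM factors came from edgeR 4.0.16. The ratio script was tested on simulated data. Promoter windows are from RefSeq (GRCm38.p6), and gene coordinates from GENCODE M21. Alternatives covered the resolution, doublets, scaling, pseudocount, floor, cell subsets and the WT library used as control.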

Additional observations from a re-analysis of the deposited data

Results flagged for a closer look

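The AS to WT log2 ratio had opposite signs at the 2 ages for 4 results on these genes, none of them past 1.5-fold at either age in the values given. In glomerular endothelial-like cells Klf9 was at 0.18 at 5 weeks and -0.36 at 8 weeks, a difference of -0.54 between the ages. In mesangial-like cells Klf9 went from 0.57 to -0.45, a difference of -1.02. Nr3c2 in mesangial-like cells was at 0.33 at 5 weeks and -0.35 at 8 weeks, a difference of -0.67. Nr3c1 there ran the other way, from -0.17 to 0.25, a difference of 0.42. With 1 library per group the difference between ages was not tested. The 2 mesangial-like genes Klf9 and Nr3c2 were both lowest in WT 5 weeks (195 and 122 CPM) and highest in WT 8 weeks (408 and 164 CPM), with both AS libraries between.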

How the results depend on the processing

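No paired analysis was possible because each group has 1 library and the groups share only the replicate number 1. Of the 28 member ratios past 1.5-fold, under-floor ones included, 25 to 28 stayed so in the same direction under each other resolution, scaling, pseudocount, doublet and cell setting run on all of them. The control library mattered most. Against the other age's WT library, 3 of 13 AS to WT calls remained and 7 reversed: at 8 weeks Fkbp5 (0.02), Zbtb16 (0.05) and Tsc22d3 (0.22) in podocyte-like, Fkbp5 (0.23) and Zbtb16 (0.60) in glomerular endothelial-like and Zbtb16 (0.65) in mesangial-like cells, and at 5 weeks Mt1 in mesangial-like cells (-0.01). The other lost calls were podocyte-like Mt1 (0.36) and Mt2 (0.42) at 5 weeks and mesangial-like Fkbp5 (-0.26) at 8 weeks. Calls at 5 weeks then numbered 4 members in podocyte-like, 5 members and 383 genes in glomerular endothelial-like and 3 members and 608 genes in mesangial-like cells. At 8 weeks podocyte-like cells had 3 members and 871 genes past 1.5-fold. The main counts were 277, 142 and 290 genes at 5 weeks, 546, 358 and 537 at 8 weeks, and 167, 466 and 653 between WT ages, in the order podocyte-like, glomerular endothelial-like, mesangial-like. With a pseudocount of 1 CPM, 1 glomerular endothelial-like member was called at 5 weeks. With TMM factors 2 mesangial-like members were called at 5 weeks and 1 at 8 weeks, and with means of per-cell CPM 2 at 5 weeks. Without a floor the counts were 519 in mesangial-like cells at 5 weeks, 565 in glomerular endothelial-like and 1025 in mesangial-like cells at 8 weeks, and 274, 787 and 1231 between WT ages. Mesangial-like counts at 8 weeks and between WT ages were 817 and 1077 at resolution 0.5, 806 and 1068 with the listed genes in the clustering, and 839 and 1101 with cluster 17 counted. Between WT ages they were 1482 with doublets kept and 1065 at resolution 2. Leaving out the interferon-rich and cycling clusters gave 141 mesangial-like genes at 5 weeks. Without cluster 23 podocyte-like cells had 286 genes at 8 weeks, and Sgk1, under the floor, reversed to -0.01. The settings on clusters 8, 17 and 23 and on interferon-rich and cycling clusters were chosen after seeing the data. The cause of these shifts was not tested. The 155 mesangial-like and 572 glomerular endothelial-like cells of WT 8 weeks limit the precision of ratios in those classes.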
